A study of Mus musculus with 6 samples.

Results

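The 200 most abundant TEC features of mouse brain RNA were described across 3 libraries without TRMT1L and 3 wild-type libraries. TEC is the GENCODE gene class for loci that rest on clusters of sequenced transcript fragments and still await an experimental check. The members were ranked by their reverse-strand read counts summed over all 6 libraries, with 1 feature, Gm37893, left out of the ranking by rule, and the 200 with most counts were taken from 3218 TEC features. The whole annotation held 55450 genes. Abundance chose the members, so their levels are given as a description without a test. Gm37893 lies inside Trmt1l, the targeted gene, and had 256, 232 and 228 counts in WT and 0, 1 and 1 in KO. With 718 counts in all it was below the last rank taken, so leaving it out did not alter the list. The last ranks inside the list were held by Gm47826 with 2399 counts, Gm48267 with 2388 and Gm37589 with 2384. The next ranks outside it were held by Gm45265 with 2362 counts, Tiaf2 with 2355 and Gm44027 with 2338.

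Long RNA from whole brain was sequenced from TRMT1L knockout mice (KO) and from WT mice, 3 biological replicates of each. TRMT1L is a relative of TRMT1, an enzyme that methylates guanosine in transfer RNA. Total RNA above 200 bp was the input, so unspliced nuclear RNA could enter the libraries along with mature messenger RNA. The knockout allele, strain, sex, age and any batch are not given in the sources used here.

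Introns are removed from a transcript both while it is being made and afterwards, and in neurons many genes for channels, adhesion proteins and synaptic scaffolds carry very long introns. RNA from such an intron is read on the strand of the gene and is not part of the messenger RNA. A TEC feature placed in an intron on the strand of its gene therefore counts the unspliced or intronic RNA of that gene together with any transcript of its own, and read counts cannot tell these apart.

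Of the 200 members, 161 lay wholly inside a protein-coding gene on the same strand, here called the host, and 39 did not. The share inside a host was 80.5% among members and 47.6% among all 3218 features. The 161 members lay in 81 hosts, of which 61 held 1 member and 20 held more. The 39 remaining members fell into 5 positions. Another same-strand gene, such as the long noncoding RNA genes Snhg14, Ftx, Lncpint and Dleu2, held 13 of them, 9 lay within 10 kb after the end of a same-strand coding gene, 5 lay opposite a coding gene, 1 partly overlapped a coding gene on its strand, and 11 lay elsewhere.

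The annotated 3′ ends are shown because a polyadenylation signal near the end of a feature is one property that separates the ends of finished transcripts from stretches inside an intron. The last 30 bases are printed 5′ to 3′ on the strand of the feature, from the GENCODE M21 transcript sequences of GRCm38, and capitals mark AATAAA where it is present. The first 4 lie shortly after a coding gene, namely after Homer1, Sept11, Tbc1d19 and Kcnj4, and the fifth lies in no gene. The last 4 are abundant members without either signal: 3 of them lie in introns of Kcnd2 and Kcnip4, and 9330162G02Rik, the member with most counts, lies opposite Ube3a.
Gm47155: cttgggaattgtcaAATAAAcaataacttt
Gm43682: tacagcAATAAAacattcttggataccttg
Gm43268: actgcaAATAAAgattatattgcttctttc
Gm49593: aacttaacAATAAAtgacacaattagtgtg
9330121K16Rik: tttacatgggtAATAAAaagtatattcacc
Gm42583: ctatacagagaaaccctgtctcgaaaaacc
2900064K03Rik: atgtagtttccaaatgggaattagtcattc
Gm42770: aaatagaagctttccttaatttataaaacc
9330162G02Rik: catcatctcaatatatggtctttttttctt
On GRCm38, Gm47155 spans chr13:93410783-93412957 on the plus strand and Gm43682 chr5:93176970-93179059 on the plus strand. Gm43268 spans chr5:53905164-53909218 (plus), Gm49593 chr15:79480227-79482674 (minus) and 9330121K16Rik chr8:55073249-55077134 (plus). Gm42583 spans chr6:21258921-21265620 (plus), 2900064K03Rik chr5:49515825-49518937 (minus), Gm42770 chr5:49124587-49128741 (minus) and 9330162G02Rik chr7:59223847-59254788 (minus).

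The hexamers AATAAA and ATTAAA, the most common polyadenylation signals, were searched in the last 40 bases of each feature on its own strand. They were present in 42 of the 200 members (21%) and in 27.5% of all TEC features. The share was 70.0% among 21862 protein-coding transcripts and 4.80% among 163883 windows of the same length laid inside TEC features. By position, 27 of 161 members inside a host held a signal (16.8%), against 7 of the 9 that followed a coding gene (77.8%). Among all TEC features that follow a coding gene the share was 50.7%. A match is a description of these letters and no evidence of cleavage there. Whether a run of A in the genome follows the annotated ends was not analysed here.

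All but 1 of the members (199 of 200) had a single exon. They were longer than other TEC features, with a median length of 3123.5 against 1872 bases, and poorer in G and C, with a median of 38.8% against 42.5%. Of the 161 members inside a host, 158 overlapped no annotated exon of the host. Host transcripts that do not span the member were not set apart in this count. Introns were assigned from the spanning transcript with most exons in which the member lay in an intron. Member introns were long, with a median of 205 kb (quartiles 76.2 and 461 kb) over 160 members with an assigned intron. The median was 36.4 kb for 1337 other TEC features. Intron 1 held 69 of the 160 members (43.1%), against 31.0% of the other features. The hosts had a median span of 303 kb, where coding genes tested had 25.3 kb. The ranking was on counts and not per length, so length entered the choice of members.

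The members together took 926964 counts, 45.5% of all TEC counts. Counts per member ranged from 2384 to 47045 over the 6 libraries, and mean abundance from 11.6 to 230 CPM (counts scaled to the gene counts of each library with TMM factors) with a median of 17.7. Of the 3218 TEC features, 542 had no count. Reads lay on the annotated strand almost throughout: in 158 of the 161 members inside a host, the opposite strand held under 1% of the stranded counts. In 10 members it held over 5%, and 8 of these lay opposite a coding gene. The highest was Gm49338, opposite Bace1, at 55.3%, followed by Gm44560, opposite Ube3a, at 34.6%. For these members, reads from the opposite gene cannot be told apart from their own where strand separation is incomplete.

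Gene counts per library ranged from 31201119 to 36145961, and the reverse strand held between 94.6% and 94.8% of the stranded gene counts. Trmt1l, the targeted gene, had 1279, 1034 and 1158 counts in WT and between 93 and 106 in KO, a log2 fold change of -3.58 with an adjusted p of 6.95e-10 in edgeR's quasi-likelihood test. Markers of neurons, astrocytes, oligodendrocytes and their precursors, microglia and vascular cells were present in every library, and those of pituitary and other organs were near 0. Of 8 oligodendrocyte markers 7 had values below 0 in KO over WT, and their summed level was 4160 to 4591 CPM in WT and 3591 to 4292 in KO. The 5 choroid plexus markers all had values above 0 in KO over WT, 3 of them with an unadjusted p under 0.05, and their summed level was 308 to 363 CPM in WT and 368 to 440 in KO. The summed level of 3 blood genes was 98.4 to 135 CPM in WT and 88.6 to 222 in KO. None of these markers was host to a member apart from 1 neuronal gene, and their part in the results below was not tested. In whole tissue, fewer cells of a type and less RNA per cell cannot be told apart.

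The hosts with most members are known for roles at neuronal membranes and synapses. Kcnip4, which encodes a protein that binds Kv4 potassium channels, held 18 members. Adgrb3, an adhesion G protein-coupled receptor found at synapses, held 14, and Dlg2, a postsynaptic scaffold of the PSD-95 family, held 12. Ank2, the membrane-cytoskeleton adaptor ankyrin-B, held 9, and Fam155a, a subunit of the sodium leak channel complex, held 8. These 5 hosts accounted for 61 of the 161 members. Cntnap2 and Ctnna2, encoding a neurexin-related adhesion protein and the neuronal alpha-catenin, held 5 each. Of 45 genes on a list of synaptic and neuronal adhesion genes, 6 were hosts and held 19 members. A list of ion channel genes defined by symbol prefix (118 tested) held 2 hosts and 19 members, 18 of them in Kcnip4, whose product is not itself a channel. Of 80 genes for RNA-binding proteins and splicing factors, 3 were hosts with 3 members, and of 17 ionotropic glutamate receptor genes 1 was.

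The most abundant member inside a host was Gm42583 (ENSMUSG00000106826.1), in intron 1 of Kcnd2, the gene of the A-type potassium channel Kv4.2. It measured 160, 165 and 160 CPM in WT, against 143, 170 and 143 in KO. The groups overlapped, because KO replicate 2 lay above every WT library. Its log2 fold change was -0.09 (SE 0.0640, adjusted p = 0.759 in edgeR's quasi-likelihood test). It was -0.18 without KO replicate 2 and -0.05 without KO replicate 1 or without KO replicate 3. Gm49069, in intron 1 of Fgf14, whose product binds voltage-gated sodium channels, had 77.6, 76.2 and 69.6 CPM in WT and 67.3, 73.9 and 71.1 in KO. Here too the groups overlapped.

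Read density was compared with the host as a measure of intronic RNA. Member density was taken per kb of bases outside exons of other same-strand genes, and host density per kb of the union of its exons. Over the 161 pairs the member reached a median of 32.3% of the density of its host (quartiles 16.9% and 54.9%). Abundance chose the members, and over the 1198 other tested TEC features inside a host the median was 17.1% (quartiles 10.1% and 29.5%). Per library the median lay between 30.2% and 33.2%, with WT at 31.6%, 32.5% and 32.5% and KO at 32.1%, 33.2% and 30.2%. The genotypes overlapped in this share. The choice of host length mattered: with the longest annotated transcript in place of the union of exons, the median was 16.8%.

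**Figure D1:**
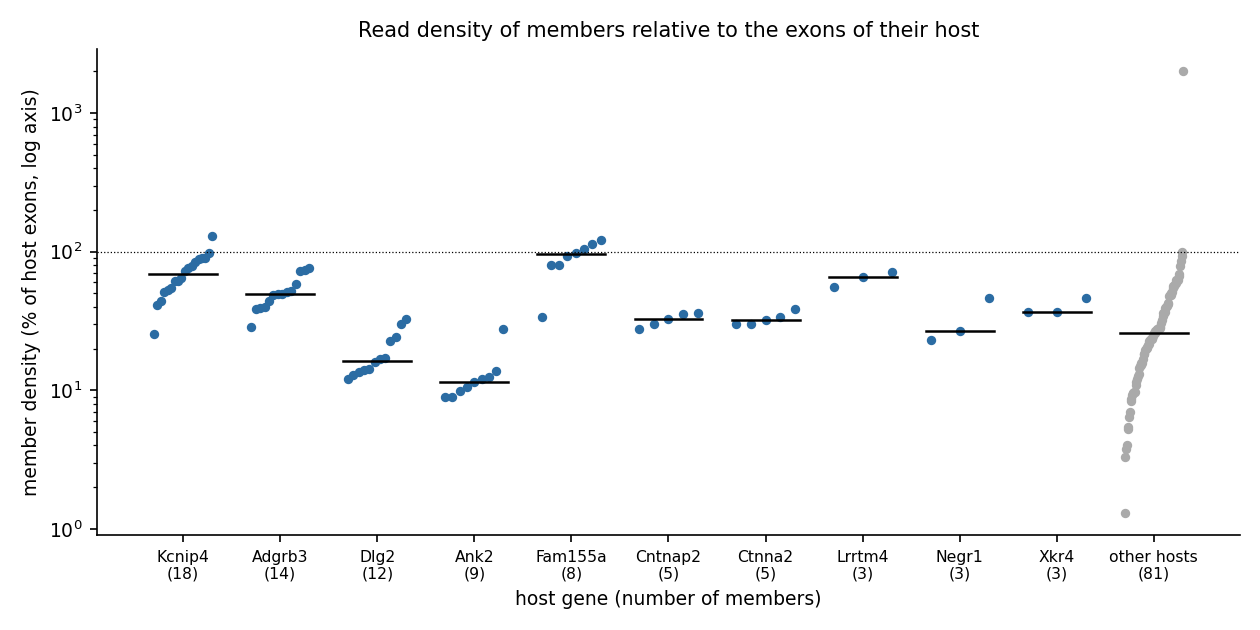
Read density of each of the 161 members as a percentage of the exonic density of its host (log axis), by host for hosts with at least 3 members and pooled for the rest; points are members, black lines are medians and the dotted line marks 100%. The medians are 95.8% in Fam155a and 69.1% in Kcnip4, against 16.3% in Dlg2 and 11.5% in Ank2.

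In 5 members the density was above that of the host exons. Gm42767 in Kcnip4, the shortest of the members at 632 bases, reached 130%. Gm44800, Gm44797 and Gm44798 in Fam155a reached 121%, 114% and 105%. The fifth, Gm37206, reached 2001% of Gm21992, a gene model with only 61 to 97 counts per library, so that value rests on a host that was hardly read. At the other end stood members of genes with 130 to 251 CPM per kb of exon. Gm45264 and Gm45263 in Gpm6a, a neuronal membrane glycoprotein gene, reached 1.30% and 5.23% of its exonic density. Gm43359 in Atp2a2, the gene of a calcium pump of the endoplasmic reticulum, reached 3.31%, Gm49759 in Pkm, the pyruvate kinase gene, 3.79%, and Gm47477 in Syt1, the gene of a calcium sensor of synaptic vesicles, 4.06%. Under 10% of host density stood 18 members, and over 50% stood 48.

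The ratio differed between hosts. The median was 69.1% over the 18 members of Kcnip4, 49.7% over the 14 of Adgrb3 and 95.8% over the 8 of Fam155a. It was 16.3% over the 12 members of Dlg2 and 11.5% over the 9 of Ank2. The exonic density itself was 21.7 CPM per kb for Kcnip4, 14.9 for Adgrb3, 12.6 for Fam155a, 31.1 for Dlg2 and 53.6 for Ank2. The ratio was lower in the 2 hosts with the higher exonic density, but that density is its divisor, so this is partly built in. Kcnip4 had both a higher exonic density and a higher ratio than Adgrb3.

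Several members often shared 1 intron, which allowed density to be followed along it. Intron 1 of Kcnip4, 1015 kb long, held 24 TEC features, 18 of them members. Near its start, 5.70 kb in, 2900064K03Rik had a density of 22.1, 24.0 and 21.4 CPM per kb in WT and 18.9, 21.4 and 20.2 in KO. Near its end, 987 kb in, Gm43831, which is not a member, had 1.81, 1.95 and 1.39 CPM per kb in WT and 1.45, 1.61 and 1.51 in KO. The mean over libraries was 21.4 CPM per kb at the first feature and 1.62 at the last, and no library of the one reached those of the other. The decline was not smooth, since the highest density, 28.2 CPM per kb, belonged to Gm42767 at 450 kb. Gm42767 is the shortest of the members, at 632 bases, and the features at 438 and 453 kb had 14.1 and 19.1 CPM per kb.

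**Figure D2:**
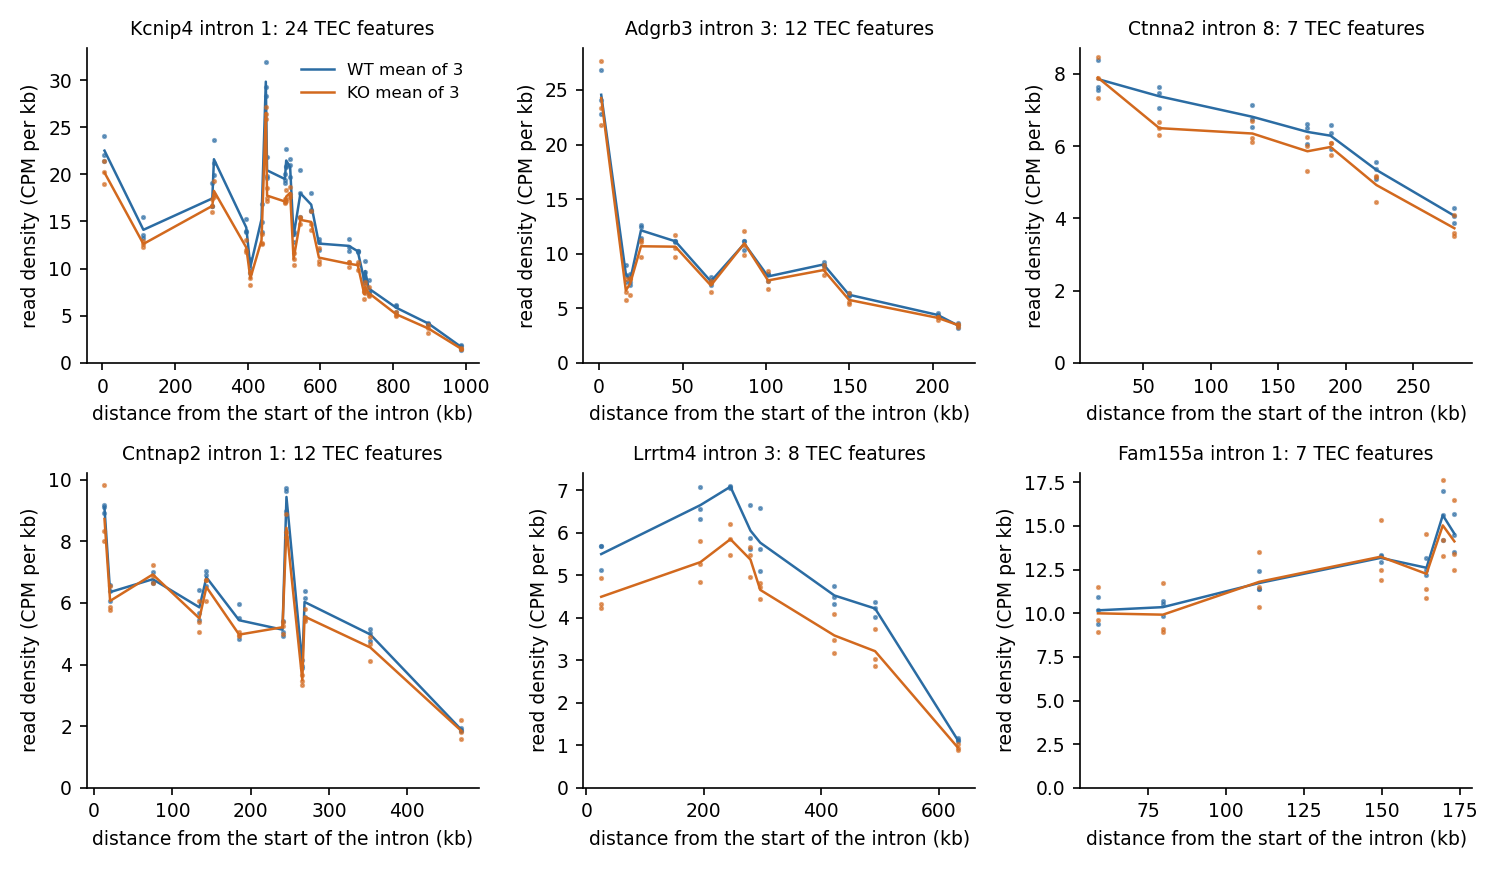
Read density (CPM per kb) of every TEC feature in 6 introns against its distance in kb from the start of the intron, members and other TEC features together; points are libraries, lines are means of the 3 WT (blue) and 3 KO (orange) libraries. Density was lower toward the far end in 5 of the introns shown and higher there in intron 1 of Fam155a.

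Across the features of an intron, Spearman's rho of distance and density was -0.75 in Kcnip4 intron 1 (24 features). It was -0.64 in Adgrb3 intron 3 (12 features), -0.86 in Adgrb3 intron 17 (7), -0.96 in Ctnna2 intron 8 (7), -0.66 in Cntnap2 intron 1 (12), -0.96 in Dlg2 intron 7 (7) and -0.74 in Lrrtm4 intron 3 (8). In 2 introns it was positive, at 0.32 in Dlg2 intron 6 (7 features) and 0.93 in Fam155a intron 1 (7 features). These are descriptions over the 9 introns with at least 5 TEC features and 3 members. The features of an intron share the host, the libraries and their depth, and base composition and mappability along the introns were not examined. In Fam155a the features lay between 59.0 and 173 kb into an intron of 195 kb, and density was 10.1 CPM per kb at Gm44802 and 14.3 at Gm44797.

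The genotype comparison asked whether loss of TRMT1L came with a change in these features. Members were mostly a little lower in KO, and none passed the test: of 200 members tested, 0 had an adjusted p under 0.05 in edgeR's quasi-likelihood test over 21237 genes, and the smallest adjusted p was 0.542. Over all genes, 0.00942% were called lower and 0.0% higher. The 2 genes called lower were Trmt1l and Gm37893, which lies inside it. At an unadjusted p under 0.05, 48 members were lower in KO (24%) and 0 were higher, where 3.38% of all genes were lower and 4.54% higher. Leaving out WT replicate 2 brought the 48 members to 22, and leaving out KO replicate 1 to 30. DESeq2 gave an adjusted p to 113 of the members, and 1 of them, 9330121K16Rik, passed, lower in KO with an adjusted p of 0.0361. Over all 8885 genes with an adjusted p, DESeq2 called 0.113% lower and 0.169% higher. Without a filter on low counts, edgeR called 5 members lower, namely 9330121K16Rik, Gm42528, Gm42770, Gm43316 and Gm37717, with adjusted p-values of 0.00335 to 0.0406. In that setting calls rose over all genes too, from 2 to 298, with 0.201% of 37245 genes lower and 0.599% higher.

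The direction was widespread and the size small. The log2 fold change was below 0 in 166 of the 200 members (83%), against 49.9% of all genes. Its median was -0.09, where the median of all genes was 0.00, and it ranged from -0.41 to 0.20. Without KO replicate 2 the median was -0.14, with 187 members below 0, and without KO replicate 3 it was -0.05, with 129 below 0. Every KO library lay below every WT library in 44 members (22%), against 6.97% of all genes, and the opposite held for 0 members, against 7.46%. The 161 members inside a host had a median of -0.08 with 37 at an unadjusted p under 0.05, and the 39 others had a median of -0.10 with 11. TEC features outside the 200 had a similar median of -0.08 over 1596 tested, with 80 lower (5.01%) and 10 higher. Members are not independent of each other, since many share a host.

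**Figure D3:**
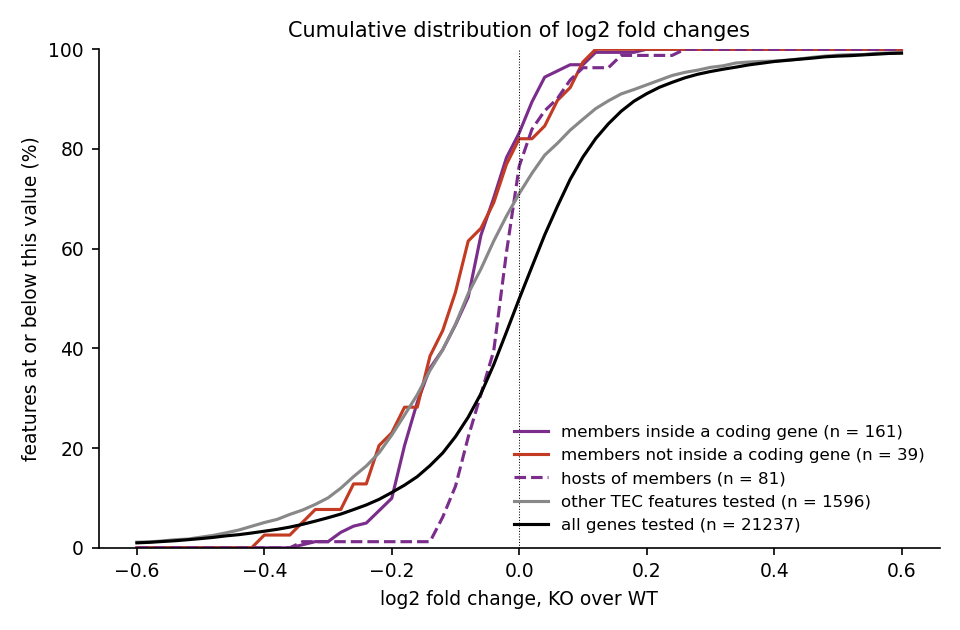
Cumulative share (%) of features at or below each log2 fold change (KO over WT) for members inside and not inside a coding gene, the hosts of members, other TEC features and all genes tested. At the median, the curves of both groups of members (-0.08 and -0.10) and of other TEC features (-0.08) lie left of that of all genes (0.00), and the hosts lie between (-0.03).

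Summed over members, the shares of gene counts were lower on average in KO. The members took 0.461%, 0.486% and 0.464% of gene counts in WT and 0.429%, 0.453% and 0.420% in KO. On this scale the groups did not overlap for all members or for the 161 inside a host, and KO replicate 2 was the nearest to WT. The shares of the 39 others did overlap, with KO replicate 2 at 0.104% and WT replicate 1 at 0.103%. With TMM-scaled library sizes, the scale of the CPM values and an alternative chosen after seeing the data, the groups overlapped in every one of these sums. KO replicate 2 was then at 0.461% for all members, above WT replicate 1 at 0.457%, and the 161 inside a host had 0.355% in both libraries, with KO replicate 2 slightly the higher. Reads assigned to no gene were also lower in KO. They made up 51.0%, 52.2% and 50.3% of mapped reads in WT and 49.3%, 49.8% and 48.6% in KO. STAR counts only reads over annotated exons of the counted strand, so these include reads in introns and on the opposite strand. Their part in the lower values of the members was not tested.

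**Figure D4:**
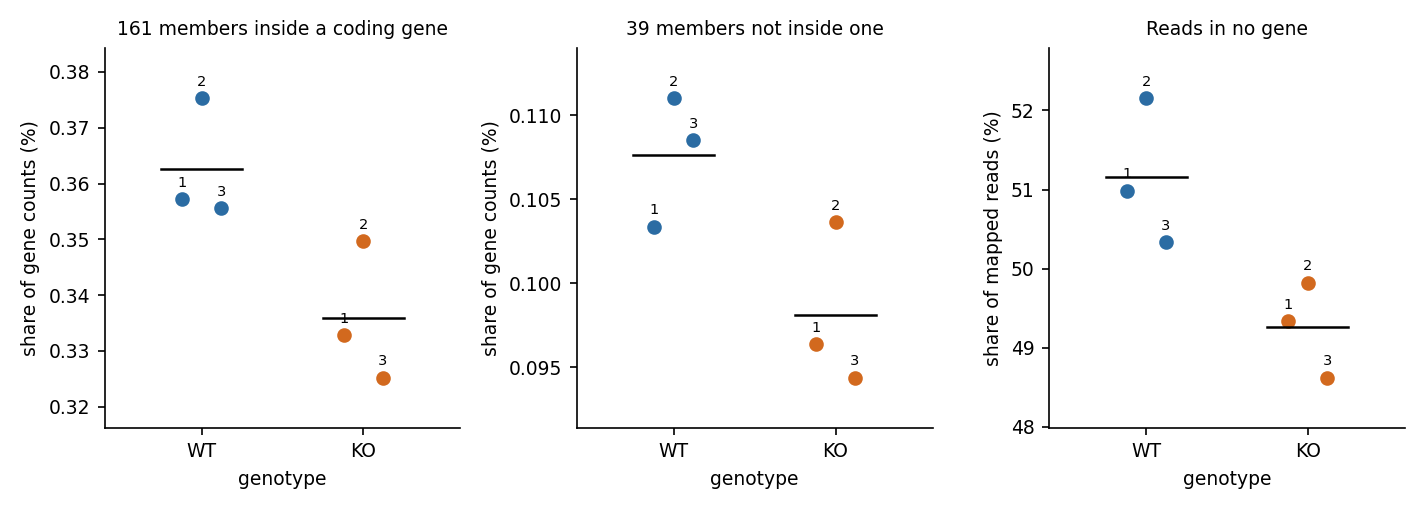
Share of gene counts (%) taken by the 161 members inside a coding gene and by the 39 others, and share of mapped reads (%) assigned to no gene, in each WT and KO library. Reads assigned to no gene include reads in introns. Digits are replicate numbers, black lines are group means and the axes do not start at 0. KO means lie lower in all 3 panels. On this scale the groups overlap for the 39 members not inside a coding gene, and with TMM-scaled library sizes they overlap for the 161 inside as well.

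Kcnip4 held the most members that were lower in KO. All 18 had a log2 fold change below 0 (median -0.19), 16 had an unadjusted p under 0.05 and 14 had every KO library below every WT library. Gm43316 (ENSMUSG00000105332.1) measured 27.1, 29.4 and 26.9 CPM in WT and 22.5, 22.2 and 23.8 in KO. The groups did not overlap (log2 fold change -0.28, SE 0.0637, adjusted p = 0.550 in edgeR). Gm43320 in the same intron measured 35.8, 38.2 and 34.6 CPM in WT and 31.2, 29.5 and 31.3 in KO, again without overlap (log2 fold change -0.24, SE 0.0598). Gm42771 was the least changed, at 41.4, 47.3 and 41.4 CPM in WT and 41.4, 39.7 and 43.1 in KO. Its groups overlapped.

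Kcnip4 itself measured 82.5, 85.2 and 77.6 CPM in WT and 75.7, 73.8 and 77.7 in KO. The highest KO library lay just above the lowest WT library, so the groups overlapped, with a log2 fold change of -0.11 (SE 0.0512, adjusted p = 0.628 in edgeR). Of all 24 TEC features in its intron 1, 24 had values below 0 and 19 an unadjusted p under 0.05. The 18 members count 1 intron and hold 13.8% of all member counts, so they are not 18 separate results. Outside Kcnip4, 32 of 182 members (17.6%) were lower at an unadjusted p under 0.05.

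Lrrtm4, the gene of a leucine-rich adhesion protein of excitatory synapses, held 3 members in intron 3, chosen after their values were seen. They were all lower at an unadjusted p under 0.05, with a median of -0.29, and all 8 TEC features of the intron lay below 0. Gm44230 measured 25.2, 25.1 and 25.2 CPM in WT and 20.7, 19.5 and 22.1 in KO, without overlap (log2 fold change -0.28, SE 0.0653, adjusted p = 0.576 in edgeR). The members of Dlg2, Ank2 and Fam155a had medians of -0.06, -0.08 and -0.03 and 0 members at an unadjusted p under 0.05 in these 3 hosts. In Adgrb3 the median was -0.10 and 2 of 14 members had an unadjusted p under 0.05. Differences between hosts were not tested.

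Among members outside coding genes, 9330121K16Rik (ENSMUSG00000110249.1) had the smallest p. It is a single-exon feature 12378 bases beyond the end of Gpm6a on the same strand, and its last bases hold AATAAA. It measured 23.3, 25.6 and 25.1 CPM in WT and 19.97, 19.7 and 18.2 in KO. The groups did not overlap (log2 fold change -0.35, SE 0.0681, adjusted p = 0.542 in edgeR). Gpm6a itself had 816, 830 and 880 CPM in WT and 804, 765 and 753 in KO, a log2 fold change of -0.12 (SE 0.0431). The lowest log2 fold change of any member belonged to Gm42528, which follows Hs3st1, a heparan sulfate sulfotransferase gene. It had 13.5, 13.9 and 12.8 CPM in WT and 8.84, 9.57 and 11.9 in KO, without overlap (log2 fold change -0.41, SE 0.109, adjusted p = 0.576 in edgeR).

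A group of 6 members lay in or next to Snhg14, the long noncoding transcript of the imprinted Prader-Willi and Angelman region that runs opposite to Ube3a, a ubiquitin ligase gene silenced on the paternal allele in neurons. The most abundant of all members, 9330162G02Rik, measured 228, 248 and 250 CPM in WT and 205, 238 and 211 in KO. KO replicate 2 lay above WT replicate 1, so the groups overlapped (log2 fold change -0.15, SE 0.0602, adjusted p = 0.606 in edgeR). Gm44560 had 53.6, 57.4 and 56.9 CPM in WT and 46.0, 48.9 and 48.8 in KO, without overlap. All 6 members had values below 0 (median -0.18) and 4 had an unadjusted p under 0.05. On counts made without regard to strand, the log2 fold change of Gm44560 was 0.03, so its direction depended on strand. Ube3a itself had a log2 fold change of -0.09, and the part of its reads in this difference was not tested.

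The other long noncoding RNA genes with members include Ftx, a regulator of X inactivation, Lncpint and Dleu2. Gm38020 in Ftx measured 43.3, 45.5 and 46.4 CPM in WT and 41.5, 45.3 and 39.04 in KO. KO replicate 2 lay within the WT range, so the groups overlapped (log2 fold change -0.10, SE 0.0636). All 13 members inside another same-strand gene had values below 0, with a median of -0.10 and 2 at an unadjusted p under 0.05. They include A230103L15Rik and Gm44831 in Snhg14, already counted in the group above. The 9 members that follow a coding gene, where polyadenylation signals were most frequent, had a median of -0.04, with 7 below 0 and 1 at an unadjusted p under 0.05. Gm47155, after Homer1, measured 18.2, 19.6 and 24.1 CPM in WT and 19.8, 22.8 and 17.7 in KO, and its groups overlapped. A630036G19Rik, 505583 bases beyond Lipi, measured 30.1, 35.3 and 32.8 CPM in WT and 29.6, 28.01 and 26.1 in KO. Its groups did not overlap (log2 fold change -0.23, SE 0.0729, adjusted p = 0.576 in edgeR).

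A second group, of 4 members in the region between Dhx15 and Ppargc1a, had values above 0, with 0 at an unadjusted p under 0.05 and 0 with the groups apart. Gm43175 measured 30.9, 31.7 and 36.3 CPM in WT and 29.5, 41.6 and 30.2 in KO, and Gm42616 measured 26.9, 27.6 and 30.1 in WT and 25.01, 39.4 and 26.9 in KO. In both, KO replicate 2 stood above all other libraries and the other KO libraries lay within or below the WT range. The median log2 fold change of the 4 was 0.08. Without KO replicate 2 it was -0.14 for Gm43175, -0.12 for Gm42616, -0.15 for Gm43606 and -0.07 for Gm43174, so the positive sign of all 4 rested on that library.

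Of the members above 0, the 5 with the smallest p were all inside hosts, and none had an unadjusted p under 0.05. Gm38372, in Pcmtd1, measured 16.9, 16.1 and 16.9 CPM in WT and 18.2, 22.96 and 16.2 in KO. KO replicate 2 was again the highest and KO replicate 3 lay within the WT range (log2 fold change 0.20, SE 0.109, adjusted p = 0.675 in edgeR). Gm42822 in Ppp3ca, Gm45640 in Chd9, Gm48602 in Ptprg and Gm43789 in Mapk10 had log2 fold changes of 0.12, 0.11, 0.10 and 0.10.

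Members were then set against their hosts. The 81 hosts had a median log2 fold change of -0.03, with 62 below 0, 9 lower and 1 higher at an unadjusted p under 0.05, and protein-coding genes as a whole had a median of 0.01. Member and host log2 fold changes went together, with Pearson's r of 0.53 and Spearman's rho of 0.62 over 161 pairs that share libraries, depth and in part hosts. The member was below its host in 122 of 161 pairs. The median difference, member minus host, was -0.05, and it was -0.09 without KO replicate 2 and -0.03 without KO replicate 3.

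**Figure D5:**
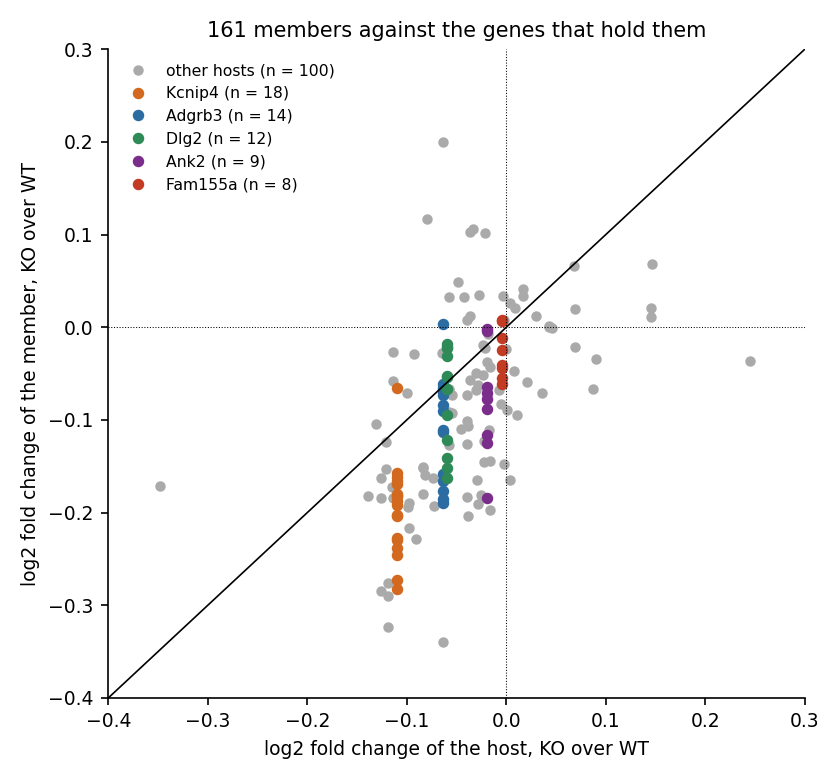
Log2 fold change (KO over WT) of each of the 161 members inside a coding gene against that of its host, colored for the 5 hosts with most members; the solid line marks equal values. Most points, 122 of 161, lie below the line, and the 18 members of Kcnip4 all lie below 0.

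The ratio of each feature to its host was tested with edgeR on feature counts with the host count as offset, over 1357 TEC features in 782 hosts. Lower ratios in KO passed in 1 pair (0.0737%) and higher ones in 0. Of the 161 members, 0 passed, with a smallest adjusted p of 0.623, and 6 were lower and 2 higher at an unadjusted p under 0.05. Over all pairs 4.27% were lower and 0.811% higher, so members were close to the background. Ratios below 0 made up 121 of 161 members (75.2%) and 67.9% of all pairs. Per library, the median ratio of members to hosts, centred over libraries on the log2 scale, was 0.02, 0.05 and 0.01 in WT and -0.03, 0.04 and -0.08 in KO. KO replicate 2 lay within the WT range, so the groups overlapped.

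The smallest p among members belonged to Gm38372 in Pcmtd1 (ratio 0.26 on the log2 scale, SE 0.0909, adjusted p = 0.623 in edgeR's ratio test). Gm42888, in intron 1 of Kctd8, the gene of an auxiliary subunit of GABA-B receptors, followed. It measured 13.9, 13.6 and 12.4 CPM in WT and 10.01, 11.2 and 10.3 in KO, while Kctd8 measured 16.7, 13.6 and 15.0 in WT and 13.8, 13.3 and 16.2 in KO. The member did not overlap between the groups and its host did (ratio -0.27, SE 0.103, adjusted p = 0.670 in edgeR's ratio test). C130089K02Rik, in Maml3, a Notch coactivator gene, had a ratio of -0.26 (SE 0.0980). The host measured 31.7, 29.5 and 33.5 CPM in WT and 30.9, 46.2 and 35.2 in KO, with KO replicate 2 far above the rest. The groups overlapped, and the host did not pass (adjusted p = 0.637 in edgeR).

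Only 1 pair passed this test, and it is not a member: Gm47075, in intron 1 of Homer1, a postsynaptic scaffold gene induced by activity, with a ratio of -0.79 (SE 0.165, adjusted p = 0.00646 in edgeR). Its counts were 10.4%, 8.61% and 3.36% of those of Homer1 in WT and 7.32%, 2.83% and 2.78% in KO. The groups overlapped, since KO replicate 1 lay above WT replicate 3. The test pools its estimate of spread across pairs, and limma on the log2 ratio called 0 pairs. Homer1 had 132, 140 and 188 CPM in WT and 152, 226 and 146 in KO.

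Host span moved with the genotype difference across coding genes. Coding genes up to 10 kb long had a median log2 fold change of 0.05 (3594 genes), and those of 500 kb and more had -0.06 (219 genes), with 34 lower and 0 higher at an unadjusted p under 0.05 in the longest class. Of those 219 genes, 25 were hosts of members. The part of span in the lower values of the members was not tested. Of the listed gene groups, the 45 adhesion genes had a median of -0.06 with 14 lower and 3 higher at an unadjusted p under 0.05, the 118 ion channel genes 0.03 with 6 and 5, the 17 glutamate receptor genes -0.05 with 3 and 1, and the 80 RNA-binding genes 0.00 with 3 and 2. The shares of channel genes (5.08% lower, 4.24% higher) and of RNA-binding genes (3.75% and 2.5%) were near the 3.38% and 4.54% of all genes. Those of adhesion genes were 31.1% and 6.67%, where the longest class of coding genes had 15.5% lower. The lists were made with earlier results of these data known, so their shares are a description. None of the listed genes had an adjusted p under 0.05 in edgeR. For 12 nuclear long noncoding RNAs, the median was -0.03, with 1 lower and 1 higher at an unadjusted p under 0.05. The lower one was Snhg14 (log2 fold change -0.11), which itself holds members, so the list is not separate from them. The higher one was Gm26917 (0.41), annotated as a long noncoding RNA but also counted among ribosomal RNA features.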

How the data were processed

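Per the submitters' processing notes, cutadapt 1.9.1 and STAR 2.7.0f were used, with no role stated. The authors deposited whole-number read counts per gene in the layout of STAR's gene counts, 1 table per library, not normalized. The genome build is not given in the sources used here, but all 55450 gene identifiers matched GENCODE M21 (GRCm38). The reverse-strand column was used. Its first 4 rows, which name no gene, were left out of library sizes and tests. Reads assigned to no gene, intronic reads among them, made up 48.6% to 52.2% of mapped reads. STAR leaves out reads that fall in several genes of 1 strand, so TEC features keep only reads outside other exons.

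Counts were fitted in R 4.3.3 with edgeR 4.0.16 (filterByExpr by group, TMM, quasi-likelihood test, Benjamini-Hochberg over 21237 genes, all 6 libraries, genotype as sole factor). The SE is the log2 fold change over the root of F. The ratio test used the log of the host count plus 0.5 as offset. On simulated data the gene test recovered 48.5% of genes changed by 0.5 and 83% of those changed by 1 on the log2 scale, and 9.35% and 10.8% of its calls were false. The ratio test recovered 14% and 88% of changed pairs, with 12.5% and 4.35% of calls false. No 2 libraries of a group agreed within sampling noise (chi-square per degree of freedom 4.08 to 8.69). With 3 libraries per group the p-values rest on the spread between them.

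Members and gene lists were chosen with earlier results of these data known. Named were the 10 most counted members inside and outside hosts, those with the smallest p in each direction and in the ratio test, the extremes of density, the 5 hosts with most members, and ranks next to 200. Other names, such as Gm47155, Gm42528, Gm42771, the Lrrtm4 members and Gm47075, were chosen after their values were seen. Alternatives were the unstranded column, other scalings and filters, DESeq2 1.42.0, limma 3.58.1, a replicate block, other definitions of host and length, and each library left out.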

Additional observations from a re-analysis of the deposited data

How the results depend on the processing

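The count of genes with an adjusted p under 0.05 was 2, and it was 298 without a filter, 25 with DESeq2 and 2 to 5 with 1 library left out. Members with an adjusted p under 0.05 numbered 0, and 5 without a filter and 1 with DESeq2. Members at an unadjusted p under 0.05 numbered 48, and 22 to 65 with 1 library left out. Pairs passing the ratio test numbered 1, and 2 without a filter, 0 at a mean count of at least 50, 0 with limma and 0 to 4 with 1 library left out. The median member minus host difference was -0.05, and -0.09 to -0.03 with 1 library left out. The mean over libraries of the median density was 32.0% of the host, and 16.8% with the longest transcript. Members inside a host numbered 161, against 78 of the top 100 and 331 of the top 400. Ranked on the unstranded column, the list shared 181 members. The cause of these shifts was not tested, apart from the list sizes themselves.

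Replicate numbers did not pair the libraries: deviations of same-numbered libraries correlated at 0.04, -0.03 and -0.06, and 1 of 6 libraries correlated best with its own number. With the replicate block, 4 genes, 0 members and 3 ratio pairs passed, and 42 members had an unadjusted p under 0.05. The log2 fold change of Gm44798 was -0.00127 with the block.

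Of the values of named members under alternatives, 556 kept direction and side of the threshold, 4 newly passed it and 24 changed sign. With 1 library left out, the log2 fold change of 26 of the 45 named members moved by over 1.5 times. It did so in 19 of them without KO replicate 2 and in 18 each without KO replicates 1 and 3. Without WT replicates 1, 2 and 3 it did so in 16, 9 and 14. The median over members ran from -0.14 to -0.05 with 1 library left out. Gm44560 was 0.0328 on the unstranded column and Gm44798 -0.00479 with total counts. With 1 library left out, the log2 fold change of 2900027M19Rik ran from -0.198 to 0.00844. Those of members not inside a host ran, for Gm43175 from -0.142 to 0.12, for Gm42616 from -0.119 to 0.231, for Gm43606 from -0.148 to 0.186, for Gm37334 from -0.104 to 0.0801. Those of other members inside hosts ran, for C130089K02Rik from -0.0688 to 0.0132, for Gm44800 from -0.184 to 0.0278, for Gm44797 from -0.17 to 0.0376, for Gm44798 from -0.111 to 0.0762, for Gm43359 from -0.086 to 0.164, for Gm47477 from -0.098 to 0.000901, for Gm47826 from -0.112 to 0.101, for Gm37589 from -0.15 to 0.0831.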
